A study of Mus musculus with 6 samples.

Results

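Bone marrow niche factors are secreted and cell-surface proteins through which the stromal cells of the marrow keep and instruct blood cells. Of the 52550 genes in the deposited table, the 10 with the symbols Cxcl12, Kitl, Csf1, Il34, Il7, Vcam1, Angpt1, Lepr, Tnfsf11 and Tnfrsf11b are described here, and all 10 had enough reads to be tested. They were chosen with the lower counts of Cxcl12, Kitl and Csf1 in the MSR1 KO libraries already known, so their differences between genotypes are given as a description: p-values serve only to count calls beside the share of all genes called, and support nothing. The series compared macrophages of C57BL/6 mice that lacked macrophage scavenger receptor 1 (genotype MSR1 KO, here KO, 3 libraries) with those of wild-type mice (MSR1 WT, here WT, 3 libraries), which the study calls biological replicates. Both came from bone marrow grown for 7 days with 25 ng/ml M-CSF, the protein that Csf1 encodes, and were then kept for 48 h in a transwell system with bone marrow stem cells (BMSCs). The labels do not give the genotype of the BMSCs or the animal behind each library, so the p-values below measure the spread between 3 libraries of each genotype, which may be technical.

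In the marrow, CXCL12-abundant reticular cells, which carry the leptin receptor (Lepr), are the best known source of CXCL12 and of KIT ligand (Kitl). CXCL12 holds haematopoietic stem cells and B cell precursors in place through its receptor CXCR4, and KIT ligand sustains stem and mast cells through KIT. CSF1 and IL-34 both act through the receptor CSF1R, on which macrophages depend. IL-7 supports B cell precursors, VCAM1 tethers cells through the integrin α4β1, and angiopoietin 1 (Angpt1) signals through TIE2, the product of Tek. RANKL (Tnfsf11) drives osteoclast formation through RANK (Tnfrsf11a), and osteoprotegerin (Tnfrsf11b) is the decoy receptor that binds RANKL. Macrophages are known mainly as receivers of these signals.

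Cxcl12, Kitl and Csf1 are the genes whose lower counts chose the members, and the 250 bases before their RefSeq start (build GRCm38.p6) are shown to compare their promoters. Capitals mark the GC box (GGGCGG) and the TATA box (TATAAA), each read on both strands. The windows are chr6:117168285-117168534 on the plus strand for Cxcl12, chr10:100015571-100015820 on the plus strand for Kitl and chr3:107760470-107760719 on the minus strand for Csf1. In the GENCODE annotation used for the gene positions below, Kitl starts at 100015630, so most of its window lies inside that gene. The windows of Cxcl12 and Csf1 adjoin their GENCODE starts.
Cxcl12: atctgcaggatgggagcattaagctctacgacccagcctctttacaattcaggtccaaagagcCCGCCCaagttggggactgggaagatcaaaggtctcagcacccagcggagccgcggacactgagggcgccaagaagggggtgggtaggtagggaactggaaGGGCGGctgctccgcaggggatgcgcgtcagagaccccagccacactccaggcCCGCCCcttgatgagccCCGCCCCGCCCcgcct
Kitl: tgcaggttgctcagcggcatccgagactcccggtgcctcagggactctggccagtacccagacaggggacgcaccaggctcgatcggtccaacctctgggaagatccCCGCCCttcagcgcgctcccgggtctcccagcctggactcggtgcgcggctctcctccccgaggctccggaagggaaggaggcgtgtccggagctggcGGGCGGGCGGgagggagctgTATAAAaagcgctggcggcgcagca
Csf1: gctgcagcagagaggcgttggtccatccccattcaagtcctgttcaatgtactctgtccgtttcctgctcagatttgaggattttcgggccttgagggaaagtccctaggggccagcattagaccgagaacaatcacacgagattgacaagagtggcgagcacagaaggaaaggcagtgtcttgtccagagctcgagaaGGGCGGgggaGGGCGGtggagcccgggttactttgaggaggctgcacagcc
All 3 windows held GC boxes, with 5 in Cxcl12, 3 in Kitl and 2 in Csf1, and some of them overlap. Of the 32851 promoter windows of the same length, 32.7% held at least 1 GC box. Kitl had a TATA box 25 to 20 bases before its start, as did 12.4% of all windows somewhere in the window, and the letters were not in the other 2. None of the 3 windows held CCAAT (33.8% of all windows), the AP-1 letters TGANTCA (6.75%), the TEAD letters GGAATG (12.6%) or the hypoxia response letters ACGTG (16.6%). Their GC content was 64.4% for Cxcl12, 69.2% for Kitl and 56.4% for Csf1, against a median of 52.4%. The sequence table held 5 of the 10 members.

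The libraries held 36143518 to 47417448 counts each, and levels are given as CPM, the number of counts in every 1000000 of the library's total after TMM scaling. Msr1 itself had 2118, 1825 and 2000 counts in the KO libraries and 7543, 9163 and 9219 in the WT libraries, so the targeted transcript was reduced in each KO library and still read. Macrophage markers were abundant in both genotypes, and the summed level of 15 of them ranged from 30886 to 32403 CPM in KO and from 30267 to 33378 CPM in WT libraries. Lyz2 alone made up 13398 of the mean 31684 CPM in KO and 14912 of 31954 CPM in WT. Of the 15, 11 had a log2 fold change above 0 and 4 below, with a median of 0.20. For 9 of them each KO library lay above each WT library, and for 1 each lay below. Markers of stromal cells were present too. The 25 stromal markers summed to 3481, 4473 and 3582 CPM in the KO libraries and to 5773, 4757 and 5161 CPM in the WT libraries, so this sum was lower in every KO library. In bulk libraries, fewer cells of a type and less RNA per cell cannot be told apart.

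Of the 10 niche factors, 5 met the study's definition of a differentially expressed gene (DEG, a fold change above 1.5 with an unadjusted p under 0.05) and were lower in KO: Cxcl12, Kitl, Csf1, Il7 and Tnfrsf11b. Among all 16402 tested genes 5.05% were lower DEGs and 3.59% were higher ones. The members were chosen on this contrast, so nothing is read from these counts. No member was a higher DEG, by edgeR's quasi-likelihood test or by the Wald test of DESeq2. For the same 5 genes each KO library lay below each WT library, as it did for 13.4% of all tested genes. The log2 fold change was below 0 for 9 of the 10 and for 50.4% of all tested genes, with medians of -0.83 and -0.00231.

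**Figure D1:**
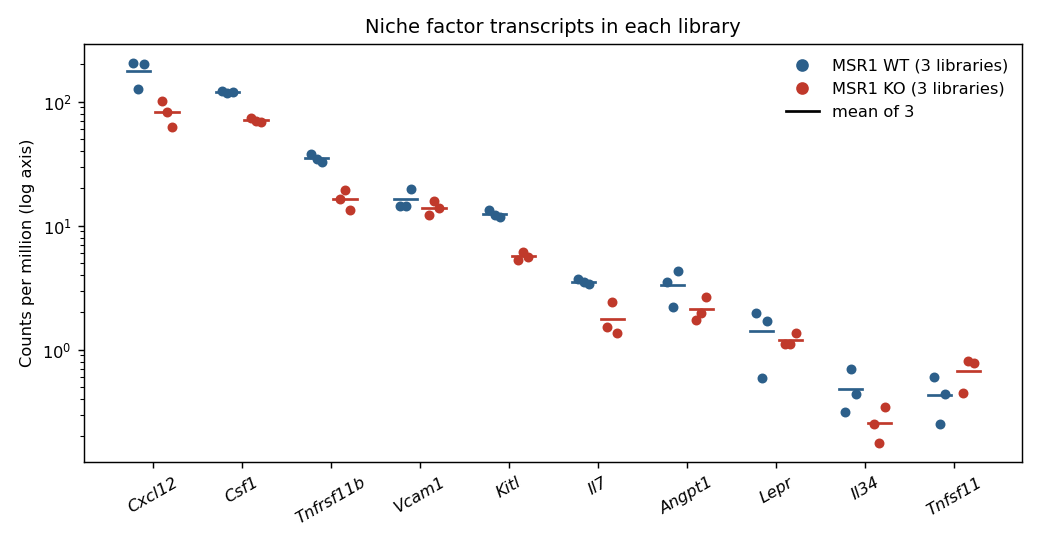
Level of each niche factor in the 6 libraries, in CPM on a log axis, with each point a library and each bar the mean of 3. The KO points of Cxcl12, Csf1, Tnfrsf11b, Kitl and Il7 all lie below the WT points, those of the other 5 genes overlap, and Tnfsf11 is the only one with the higher mean in KO.

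Cxcl12 (ENSMUSG00000061353.11, GRCm38 chromosome 6, 117168535 to 117181367) had 3618, 3303 and 2904 counts in the KO libraries and 8452, 5992 and 8265 in the WT libraries. These are 101, 83.0 and 62.5 CPM against 205, 126 and 200 CPM. WT replicate 2 was the lowest of its group and still above every KO library. The mean was 82.1 ± 19.1 CPM (SD, n = 3) in KO and 177 ± 44.1 CPM (SD, n = 3) in WT libraries. On the log2 scale the difference was -1.11 with a standard error (SE) of 0.219. Cxcl12 was thus 2.16-fold lower in KO. Of the 5 lower genes it had both the highest mean CPM and the largest SD in each genotype. Relative to level, Il7 varied more, with a biological coefficient of variation of 0.235 against 0.195 for Cxcl12.

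Kitl (ENSMUSG00000019966.18, chromosome 10, 100015630 to 100100416) had 190, 245 and 258 counts in the KO and 557, 573 and 482 in the WT libraries. The levels of 5.29, 6.15 and 5.55 CPM in KO were well apart from 13.5, 12.1 and 11.7 CPM in WT. Its log2 fold change of -1.13 (SE 0.134) was the lowest of the 10 niche factors, though that of Cxcl12 and that of Tnfrsf11b lay within 1 standard error of it. The 6 annotated transcripts of Kitl include forms that stay on the membrane and forms that are shed, and counts per gene do not separate them.

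Il7 (ENSMUSG00000040329.14, chromosome 3, 7569994 to 7613760) was a low gene, with 55, 97 and 63 counts in the KO and 152, 167 and 140 in the WT libraries. The WT libraries were close to each other at 3.69, 3.52 and 3.39 CPM, and the KO libraries spread from 1.36 to 2.44 CPM, all below them. This gave a log2 fold change of -0.99 (SE 0.265). Exons of Gm16685 on the opposite strand cover 1.85% of its exon bases, and that gene had at most 14 counts in a library.

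Csf1 (ENSMUSG00000014599.10, chromosome 3, 107741048 to 107760469) gave the tightest values of the 10. It had 2644, 2760 and 3203 counts in the KO and 5073, 5593 and 4909 in the WT libraries, or 73.6, 69.3 and 68.9 CPM against 123, 118 and 119 CPM. Both groups spanned a narrow range with a wide gap between them. The mean was 70.6 ± 2.60 CPM (SD, n = 3) in KO and 120 ± 2.75 CPM (SD, n = 3) in WT libraries, a log2 fold change of -0.76 (SE 0.0686), or 1.7-fold lower. Its biological coefficient of variation, 0.0885, was the smallest of the members, and that of Il34 was the largest at 0.386.

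Il34 (ENSMUSG00000031750.15, chromosome 8, 110741829 to 110805924), the other ligand of CSF1R, was near the lower end of what was counted. It had 9, 7 and 16 counts in the KO and 13, 33 and 18 in the WT libraries, and the groups overlapped. Its log2 fold change of -0.90 had an SE of 0.545 and moved to -0.54 without WT replicate 2. Per kb of exon, Il34 stood at 1.09 ± 0.458% (SD, n = 3) of the level of Csf1 in WT and at 0.983 ± 0.336% (SD, n = 3) in KO libraries, with overlapping groups. Csf1 was thus by far the more abundant transcript of this pair of ligands in both genotypes.

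Vcam1 (ENSMUSG00000027962.14, chromosome 3, 116109949 to 116129688) did not separate the genotypes. It had 435, 627 and 651 counts in the KO and 599, 684 and 823 in the WT libraries, or 12.1, 15.7 and 14.0 CPM against 14.5, 14.4 and 19.9 CPM. WT replicate 3 was higher than the other 5 libraries, which lay close together. The log2 fold change was -0.22 (SE 0.165) and came to -0.05 without that library.

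Angpt1 (ENSMUSG00000022309.8, chromosome 15, 42424727 to 42676977) had 62, 78 and 124 counts in the KO and 145, 106 and 177 in the WT libraries. KO replicate 3, at 2.67 CPM, lay above WT replicate 2, at 2.23 CPM, so the groups overlapped. Its log2 fold change was -0.65 (SE 0.299). Exons of Gm17473 on the opposite strand cover 14.2% of the exon bases of Angpt1. That gene had 0, 6 and 7 counts in the KO and 22, 19 and 17 in the WT libraries, and without a stated strand setting reads in the shared part cannot be assigned.

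Lepr (ENSMUSG00000057722.17, chromosome 4, 101717404 to 101815352), the surface receptor that marks reticular cells in marrow, had 40, 44 and 63 counts in the KO and 81, 28 and 71 in the WT libraries. Its WT libraries held both the highest and the lowest level, 1.96 and 0.59 CPM, and the KO libraries lay between them. The log2 fold change was -0.25 (SE 0.445), and it was 0.05 without WT replicate 1 and -0.63 without WT replicate 2. Lep, which encodes the ligand leptin, was listed at 0 counts in every library, which allows up to 0.0632 to 0.0835 CPM a library for 3 counts, a limit that covers counting error only.

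Tnfrsf11b, the osteoprotegerin gene (ENSMUSG00000063727.3, chromosome 15, 54250619 to 54278484), had 586, 768 and 628 counts in the KO and 1563, 1624 and 1359 in the WT libraries. In CPM these were 16.3, 19.3 and 13.5 against 37.9, 34.2 and 32.9, with a wide gap between the groups. This was a log2 fold change of -1.10 (SE 0.138), or 2.14-fold lower in KO. Osteoprotegerin was thus among the lower niche factors, with a change close to those of Kitl and Cxcl12.

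Tnfsf11, the RANKL gene (ENSMUSG00000022015.8, chromosome 14, 78277445 to 78308043), was the only niche factor with a higher mean in KO. It had 16, 32 and 36 counts in the KO and 25, 12 and 18 in the WT libraries, and the groups overlapped through KO replicate 1. Its log2 fold change was 0.65 (SE 0.498), between 0.37 and 0.97 with 1 library left out. Per kb of exon, Tnfsf11 came to 3.44, 5.25 and 7.22% of Tnfrsf11b in the KO libraries and to 2.02, 0.931 and 1.67% in the WT libraries. This ratio was higher in each KO library than in each WT library, and the decoy receptor outweighed the ligand in all 6.

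**Figure D2:**
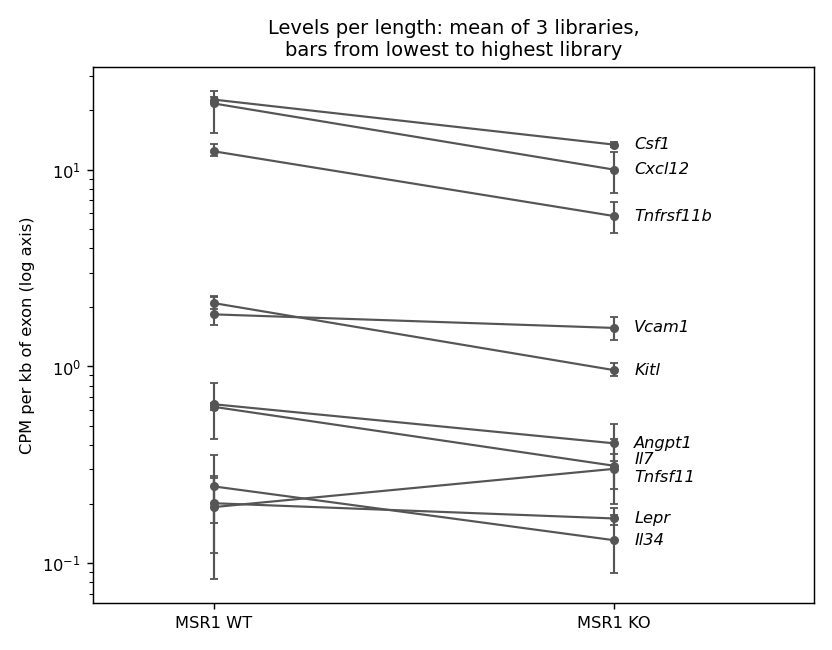
Level of each niche factor per kb of exon (CPM per kb, log axis) in WT and KO libraries, with points for means of 3 and bars from the lowest to the highest library. Csf1, Cxcl12 and Tnfrsf11b stand above the other 7 in both genotypes, and the lines of Kitl and Vcam1 cross.

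Per kb of exon, Csf1 (22.7 ± 0.520 CPM per kb, SD, n = 3) and Cxcl12 (21.7 ± 5.39) had the highest levels in WT libraries, and their ranges overlapped. They were followed by Tnfrsf11b at 12.4 ± 0.921, whose range met neither neighbour. Kitl at 2.1 ± 0.164 and Vcam1 at 1.84 ± 0.355 overlapped each other, as did Angpt1 at 0.643 ± 0.199 and Il7 at 0.624 ± 0.0263. Il34, Lepr and Tnfsf11 were lowest, at 0.246 ± 0.0992, 0.202 ± 0.104 and 0.193 ± 0.0791, and each overlapped the next. Csf1 stood above 87.4% and Cxcl12 above 86.8% of 16368 tested genes with an exon length, and Lepr above 8.35%.

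In KO libraries, the order of the 3 highest was the same, with Csf1 at 13.4 ± 0.493, Cxcl12 at 10 ± 2.34 and Tnfrsf11b at 5.81 ± 1.03 CPM per kb (SD, n = 3). Vcam1 at 1.57 ± 0.205 stood above Kitl at 0.958 ± 0.0750, with ranges apart. With the longest transcript as the length, Cxcl12 came before Csf1 and Vcam1 before Kitl in WT libraries, so the order within these pairs depended on the length used.

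The receptors and binding partners of the niche factors formed a list of 18 genes, of which 17 were tested. By edgeR's quasi-likelihood test and Benjamini-Hochberg adjustment across the 16402 genes, 5 rose and 1 fell in KO at an adjusted p under 0.05, where 2.25% of all tested genes were higher and 2.66% lower. This list and the lists below were written by hand with earlier results of these data known. Their counts of calls are therefore a description and no test of the lists. Their median log2 fold change was 0.31. Leaving out 1 library left 1 to 6 of these 6 calls, with 1 remaining without WT replicate 1.

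Kit, the receptor of KIT ligand, rose while its ligand had lower counts. It had 699, 863 and 1012 counts in the KO and 415, 328 and 566 in the WT libraries, or 19.5, 21.7 and 21.8 CPM against 10.1, 6.91 and 13.7 CPM, with no overlap. The log2 fold change was 1.04 (SE 0.223, edgeR adjusted p = 0.0393). The adjusted p lay between 0.0109 and 0.144 with 1 library left out and was under 0.05 only without WT replicate 3. Per kb of exon, Kit stood at 2.35 ± 0.147 CPM in KO, above Kitl at 0.958 ± 0.0750, and at 1.15 ± 0.381 in WT, below Kitl at 2.1 ± 0.164 (SD, n = 3 each).

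Sdc1, the proteoglycan syndecan 1, which can bind IL-34, was the partner that fell. It had 20.2, 25.5 and 20.5 CPM in the KO and 44.2, 46.9 and 57.8 CPM in the WT libraries, a log2 fold change of -1.17 (SE 0.135, edgeR adjusted p = 0.00835). This call held with each library left out, with an adjusted p of at most 0.0452 from edgeR. Dpp4, a peptidase that inactivates CXCL12, rose from 3.98, 1.75 and 3.34 CPM in WT to 8.21, 10 and 9.79 CPM in KO libraries (log2 fold change 1.63, SE 0.284, edgeR adjusted p = 0.0238). Tnfsf10, which encodes TRAIL, another ligand of osteoprotegerin, had a log2 fold change of 1.65 (SE 0.238, edgeR adjusted p = 0.0155).

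Itgb7, the β7 integrin chain that pairs with α4, had 38.1, 62.9 and 45.6 CPM in the KO and 19.1, 26.6 and 24.9 CPM in the WT libraries (log2 fold change 1.05, SE 0.195, edgeR adjusted p = 0.0267). Il2rg, the γ chain that the IL-7 receptor shares with other receptors, rose by a log2 fold change of 0.47 (SE 0.0908, edgeR adjusted p = 0.0295). Over the 6 fits with 1 library left out, Il2rg was called in 1, Dpp4 in 2 and Tnfsf10 and Itgb7 in 3 each, with adjusted p-values of at most 0.109 from edgeR.

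The other main receptors did not pass the test. Csf1r, the receptor of CSF1 and IL-34, had 4539 ± 24.3 CPM (SD, n = 3) in KO and 4413 ± 88.1 CPM (SD, n = 3) in WT libraries, a log2 fold change of 0.04 (SE 0.0534, edgeR adjusted p = 0.752). At 764 ± 15.3 CPM per kb in WT libraries it stood above 99.8% of the tested genes. Cxcr4 had a log2 fold change of -0.21 (SE 0.102, edgeR adjusted p = 0.324) and the atypical CXCL12 receptor Ackr3 one of 0.79 (SE 0.403, edgeR adjusted p = 0.341) at 16 to 40 counts a library. The values were -0.33 for Il7r, 0.31 for Itga4, -0.10 for Itgb1, 0.31 for Tek and 0.15 for Tnfrsf11a, with edgeR adjusted p-values of 0.102 or more. Per kb of exon, Cxcr4 (85.9 CPM in WT) was above Cxcl12 and Il7r (26.7) above Il7, whereas Tek (0.206) was below Angpt1.

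**Figure D3:**
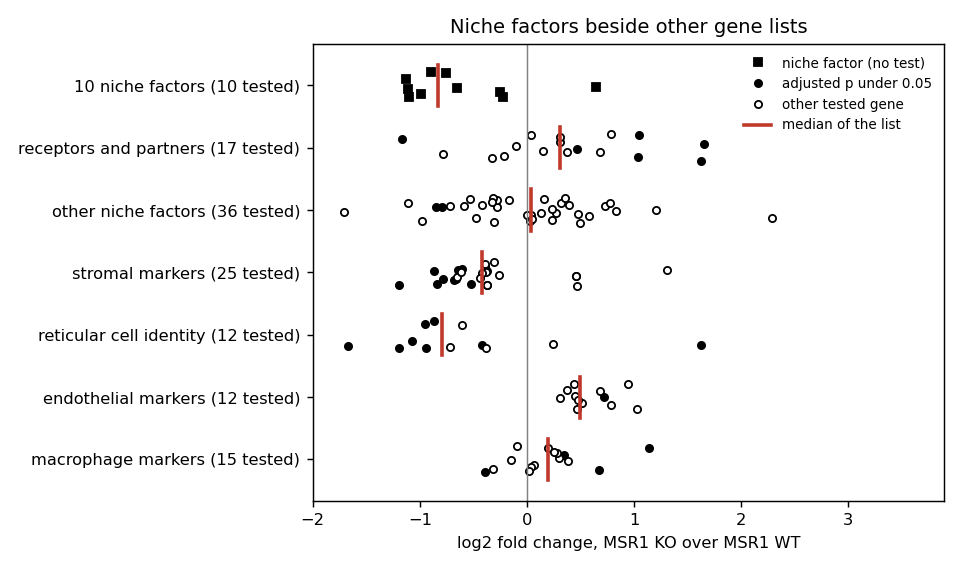
Log2 fold change between KO and WT libraries of each tested gene in 7 lists, with filled circles for an adjusted p under 0.05 (edgeR), squares for the niche factors, whose calls are not marked, and red bars for medians. The niche factors (median -0.83), stromal markers (-0.42) and reticular cell genes (-0.79) lie mostly to the left with some exceptions, and the endothelial markers (0.49) to the right.

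A list of 44 other factors of the marrow niche was set beside the members, and 36 of them were tested. At an adjusted p under 0.05 from edgeR's quasi-likelihood test, 2 fell and 0 rose, where 2.66% of all tested genes were lower and 2.25% higher. The median log2 fold change was 0.04. Under the DEG definition, 4 were lower (Spp1, Grem1, Bmp4 and Ctsk) and 2 higher, Ang among them. These are 11.1% and 5.56% of the list, against 5.05% and 3.59% of all tested genes. Spp1, the gene of osteopontin, a matrix protein that restrains stem cell numbers, fell from 979, 1188 and 1181 CPM in WT to 639, 633 and 665 CPM in KO libraries (log2 fold change -0.79, SE 0.0857, edgeR adjusted p = 0.00654). Ctsk, the protease cathepsin K of osteoclasts, fell by 0.85 on the log2 scale (SE 0.159, edgeR adjusted p = 0.0272), and its adjusted p was up to 0.0883 with 1 library left out. Of the 36 other factors, 17 had a log2 fold change below 0 and 19 above.

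Of 12 genes of reticular cell identity, all tested, 7 fell and 1 rose at an adjusted p under 0.05 from edgeR, and the median log2 fold change was -0.79. Their summed level was 121% of WT in KO, from 269 to 354 CPM against 214 to 271 CPM with overlapping groups, and Ly6a made up 179 of the 297 CPM in KO. Ebf3 (log2 fold change -1.67, edgeR adjusted p = 0.0182), Pdgfra (-1.19, edgeR adjusted p = 0.0142), Ebf1 (-1.07, edgeR adjusted p = 0.0182), Foxc1 (-0.95, edgeR adjusted p = 0.0366) and Snai2 (-0.94, edgeR adjusted p = 0.0267) fell most. Ebf1, Ebf3 and Foxc1 encode transcription factors that reticular cells need. Ly6a, the gene of the surface protein SCA-1, which other cells carry too, rose by a log2 fold change of 1.63 (edgeR adjusted p = 0.0191). None of the 8 calls remained without KO replicate 1 or without WT replicate 1. With 1 library left out, the adjusted p of these 6 genes from edgeR reached 0.0645 to 0.140, and each kept its direction.

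Of the 25 stromal markers, 9 fell and 0 rose at an adjusted p under 0.05 from edgeR, and under the DEG definition 10 were lower and 1 (Thy1) higher. Of the 3 most abundant, Acta2 fell by 0.68 on the log2 scale (edgeR adjusted p = 0.0238), and Fn1 (-0.37, edgeR adjusted p = 0.0883) and Col1a2 (-0.39, edgeR adjusted p = 0.111) did not pass the test. Fbn1 (-0.84, edgeR adjusted p = 0.0211), Pdgfrb (-0.87, edgeR adjusted p = 0.0249) and Loxl1 (-0.78, edgeR adjusted p = 0.0256) fell too. As with the reticular cell genes, 0 of the 9 calls remained without KO replicate 1 or without WT replicate 1. Thy1 (1.31, edgeR adjusted p = 0.0907), Eng (0.47, edgeR adjusted p = 0.119), Nt5e (0.46, edgeR adjusted p = 0.463) and Lum (0.46, edgeR adjusted p = 0.790) had positive values and did not pass the test. Thy1, Eng and Nt5e encode the surface proteins by which the study identified its BMSCs. The stromal and reticular lists share Pdgfra and Pdgfrb.

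**Figure D4:**
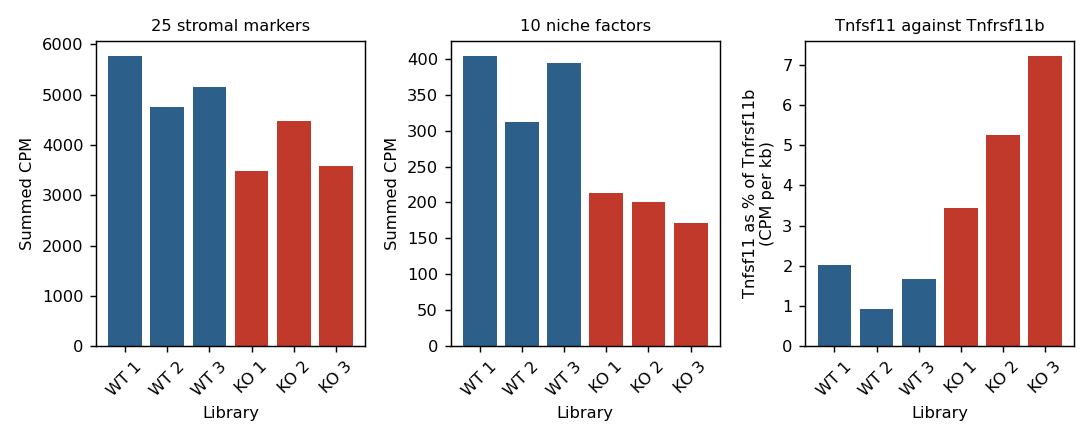
Summed CPM of the 25 stromal markers, summed CPM of the 10 niche factors and Tnfsf11 as a percentage of Tnfrsf11b (CPM per kb) in each of the 3 WT and 3 KO libraries. Both sums are lower in each KO library, as the choice of members sets for the niche factors, and the ratio is higher in each of them.

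Thus 21 of the 25 stromal markers had a log2 fold change below 0, as did most niche factors, and their part in the result was not tested. Their summed level in KO was 73.5% of that in WT libraries, and that of the 10 niche factors was 52.6%. Most of the latter sum is Cxcl12 and Csf1, which were chosen for their lower counts, so nothing is read from the gap between these percentages. None of the 25 was at 0, and the collagens among them, summed alone, overlapped between genotypes at 77.2% of the WT level. To set both side by side, the counts of each niche factor were divided by the summed counts of the 25 markers. On this scale Kitl had 1.52, 1.38 and 1.55 counts per 1000 stromal counts in the KO libraries and 2.34, 2.54 and 2.26 in the WT libraries. Tnfrsf11b had 4.69, 4.31 and 3.77 against 6.57, 7.20 and 6.37. Both were lower in every KO library, at 0.623 and 0.634 of the WT mean. The members were chosen on this contrast, and no share of all genes on this scale was computed. Whether any niche factor fell beyond the stromal markers was therefore not tested.

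Il7 (0.440, 0.545 and 0.378 against 0.639, 0.740 and 0.657) also stayed apart on this scale. For Csf1 the groups nearly touched, with 21.1, 15.5 and 19.2 against 21.3, 24.8 and 23.0 counts per 1000 stromal counts. Those of Cxcl12 overlapped, with 28.9, 18.6 and 17.4 against 35.5, 26.5 and 38.8. Vcam1 and Lepr changed sign, to log2 ratios of 0.21 and 0.25, with overlapping groups. This follows from the division, as the stromal sum had a log2 ratio of -0.44 in CPM and raises every gene. Tnfsf11 was higher in every KO library on this scale, at 0.128, 0.180 and 0.216 against 0.105, 0.0532 and 0.0844. It had only 12 to 36 counts a library, its groups overlapped in CPM, and the divisor was lower in every KO library. The median log2 ratio of the 10 was -0.38, and it came to -0.18 without KO replicate 2. Nothing is read from its sign, because the 10 include Cxcl12, Kitl and Csf1, whose lower counts were known beforehand.

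**Figure D5:**
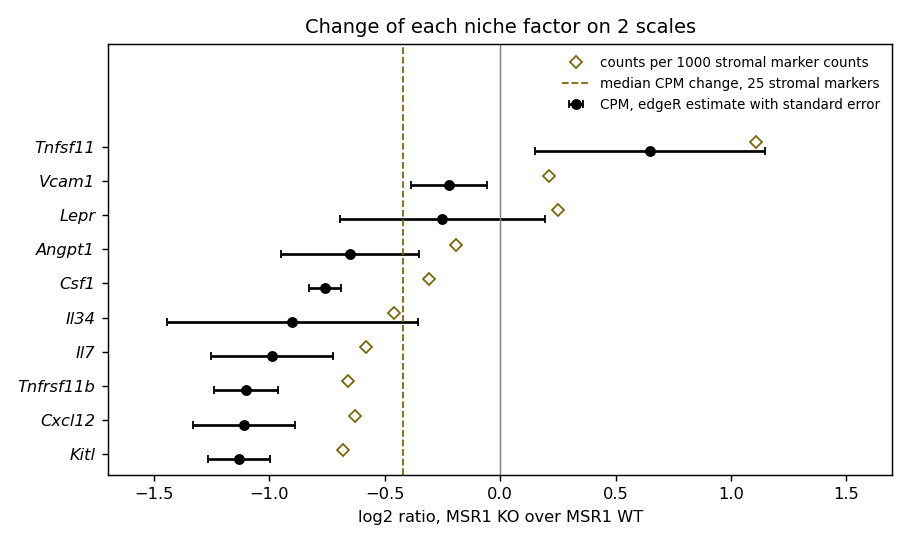
Log2 ratio of KO over WT libraries for each niche factor in CPM (filled circles, edgeR estimate with standard error) and per 1000 stromal marker counts (open diamonds), with a dashed line at the median change of the stromal markers in CPM, -0.42. Every diamond lies to the right of its circle, which follows from dividing by a stromal sum that was lower in every KO library. The diamonds of Kitl, Cxcl12, Tnfrsf11b and Il7 lie between -0.68 and -0.58.

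The genes whose profile over the 6 libraries was most like that of a niche factor were found by Pearson's correlation of log2 CPM among 13611 genes with a mean of at least 1 CPM. The r values below are the highest of that many, over 6 libraries that fall into 2 genotypes, and describe likeness only. Those most like Cxcl12 were Mras (0.999), Neo1 (0.996) and Igdcc4 (0.991), and those most like Kitl were Tpm4 (0.999), Rbfox2 (0.998) and Ppfibp1 (0.998). Dlg5, Pogz and Mast2 came closest to Csf1 (0.997 to 0.998), and Jak1, Slc4a4 and Actn1 to Tnfrsf11b (0.996 to 0.997). With the genotype means subtracted, r was 0.97 to 1.00 for the 3 genes of Cxcl12, 0.93 to 0.97 for those of Kitl, 0.95 to 0.98 for those of Tnfrsf11b and 0.64 to 0.81 for those of Csf1, whose libraries differed little within a genotype.

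Il7 was most like Cyp26b1, Limch1 and 2810004N23Rik (0.994 to 0.997), and Vcam1 had Sept7 (0.986) and Batf3 (0.976) among its closest 3. Angpt1 was closest to Arhgap25, Fcgr2b and Gm44036 (0.979 to 0.990), and Lepr to Isy1, Tbc1d31 and Pdap1 (0.969 to 0.971). None of the genes named for their likeness is in any of the lists used here. The neighbours of Lepr had log2 fold changes between -0.01 and 0.01, and those of Cxcl12, Kitl and Tnfrsf11b between -0.89 and -0.14.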

How the data were processed

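RNA-seq libraries of 3 MSR1 KO and 3 MSR1 WT macrophage cultures were compared. The values used here are the counts that the authors deposited, which are raw and not scaled. The deposited table also holds, per library, a signal (counts over a size factor) and, for the authors' own comparison, log2 fold changes with p-values. None of these was used. The submitters' processing notes name fastp 0.17.1, HISAT2 2.1.0, DESeq2 1.18.1 and R 3.4.3, whereas the paper's methods name TopHat and FPKM values. How reads were counted, whether by strand, and on which build is not given in the sources used here. GENCODE M21 held 52403 of the 52550 gene identifiers, 49909 with equal start and end positions, and its build GRCm38 was used for coordinates. Symbols that had been turned into dates (27) were restored for 26 genes, and a symbol shared by several identifiers (89) went to the row with the most counts.

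After filterByExpr and TMM scaling, the quasi-likelihood test of edgeR 4.0.16 (glmQLFit, glmQLFTest; R 4.3.3) was run, with Benjamini-Hochberg adjustment over 16402 genes. Standard errors were derived from the F statistic, as the fold change (log2) divided by its root. The test was checked on simulated counts. Levels per kb used the union of the exons of a gene. The 10 members and all gene lists were chosen with earlier results of these data known, and the lists were written by hand. Genes named were all members, their main receptors, up to 5 genes per direction of each list with the largest change at an adjusted p under 0.05, the most abundant stromal and macrophage markers, and for each member with a mean of at least 1 CPM the 3 genes most like it. Grem1, Bmp4, Ang, Thy1, Eng, Nt5e, Lum and Ibsp were named for small counts, after their values were seen. Some genes that these rules would name are not reported here. Alternatives were the Wald test of DESeq2 1.42.0, its size factors in edgeR, unscaled library sizes, a filter of at least 10 counts in each library or only a total above 0, a replicate block, fits with 1 library left out, calls by adjusted p, parts of the stromal list and the longest transcript as the length.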

Additional observations from a re-analysis of the deposited data

How the results depend on the processing

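The niche factors were chosen on this contrast, so their counts of calls show nothing about stability. There were 5 to 6 lower DEGs among them with 1 library left out. By an adjusted p under 0.05 the count was 4 (Cxcl12, Kitl, Csf1 and Tnfrsf11b), 5 with DESeq2, 3 with the replicate block and 2 to 4 with 1 library left out, lowest without WT replicate 1, where Kitl and Csf1 passed. With that rule, all genes gave 436 lower and 369 higher calls against 828 and 589, and the other niche factors gave 2 against 6. With 1 library left out, lower DEGs ranged from 673 to 937 and higher DEGs from 540 to 754, called receptors and partners from 5 to 7, other niche factors from 4 to 9 and stromal markers from 7 to 12, lowest without WT replicate 1. The median log2 ratio per stromal count ranged from -0.48 to -0.18 with 1 library left out. With the longest transcript as the length, 6 of the 10 niche factors kept their rank in WT libraries.

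Same-numbered libraries did not deviate together (correlations of -0.0261, 0.0187 and -0.0048), so the number pairs nothing. The fit with the replicate block gave 5 lower niche factors, 7 receptors and partners, 7 other niche factors and 11 stromal markers as DEGs. Over all genes the median moved by less than 0.1 on the log2 scale under each scaling. Il34, Lepr and Tnfsf11 had 7 to 81 counts a library, and their log2 fold changes had SEs of 0.445 to 0.545.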

Other observations

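Markers of further cell types were read in the same libraries. Of 12 endothelial markers, all tested, every one had a positive log2 fold change (median 0.49), and 1, Pecam1, rose at an adjusted p under 0.05 (0.72, edgeR adjusted p = 0.0269, up to 0.114 with 1 library left out). Their summed level ranged from 152 to 192 CPM in KO and from 94.5 to 148 CPM in WT libraries. Of 15 macrophage markers, Fcgr1 (1.14, edgeR adjusted p = 0.0182), Aif1 (0.67, edgeR adjusted p = 0.0204) and Ptprc (0.35, edgeR adjusted p = 0.0301) rose and Mrc1 fell by 0.39 (edgeR adjusted p = 0.0369), and the 3 most abundant, Lyz2 (-0.15), Csf1r (0.04) and Adgre1 (0.07), did not pass the test. None of the 4 calls held without WT replicate 1.

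The osteoblast list had 5 tested genes of 9. Spp1 fell, as above, and Ibsp, the gene of bone sialoprotein, was a higher DEG by the unadjusted definition (1.39, edgeR adjusted p = 0.163). Bglap, Bglap2 and Dmp1 were listed at 0 counts in every library. The adipocyte list had 3 tested genes of 7, the neutrophil list 10 of 10 with a median log2 fold change of 0.38, the list of B and T cells 3 of 10 and that of erythroid cells and progenitors 3 of 8. No gene of these 4 lists had an adjusted p under 0.05 from edgeR, and 1 of each of the first 3 was a DEG by the unadjusted definition.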
